A study of Mus musculus with 20 samples.

Results

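The hepatocyte identity transcription factors examined here were Hnf4a, Hnf4g, Foxa1, Foxa2, Foxa3, Onecut1, Onecut2 and Prox1, 8 of the 37681 genes listed in each table of counts. Within the tables they were found by gene symbol. Liver RNA came from 10 male mice aged 12 weeks, of the strain given as C57/BL6 (C57/B6J in the growth protocol), and the labels name no transgene or mutation in either group. Of these mice, 5 were given IL-1β at 20 µg/kg (ILB_9577, ILB_9578, ILB_9579, ILB_9582 and ILB_9583) and 5 saline (UNT_9574, UNT_9575, UNT_9576, UNT_9580 and UNT_9584, called untreated here), 4 h before the liver was taken. Each RNA sample was sequenced on an Illumina HiSeq and on an Ion Torrent Proton, and each platform's reads were aligned with GSNAP, with STAR and with STAR followed by Bowtie2, which gave 6 tables. The Illumina STAR table is the main one below, and the other 5 are a check on it.

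These factors bind DNA and together keep the genes of a hepatocyte switched on. HNF4A is a nuclear receptor that acts at a large share of liver-expressed genes, and the FOXA proteins are pioneer factors that can open closed chromatin so that others bind. ONECUT1 (also called HNF6) and ONECUT2 act with both in liver and bile duct development, and PROX1 is a homeobox factor of hepatocytes and lymphatic endothelium that dampens HNF4A activity at some genes.

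Of the 7 members with enough reads to be tested, Hnf4a and Foxa3 were higher after IL-1β and Foxa1 and Onecut2 were lower. Foxa2, Onecut1 and Prox1 did not pass the test, and Hnf4g had too few reads. The 4 called of 7 (57.1%) stand beside 7092 of 13117 genes called in the same table, a percent_called of 54.1, so the share was near that of genes in general. Here a gene is called when edgeR's quasi-likelihood test gave an adjusted p below 0.05 over all genes tested. Of all genes, 26.9% were called higher and 27.2% lower, against 2 of 7 members in each direction. The median log2 fold change of the 7 members was 0.13 and that of all genes tested was -0.0072.

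A library held between 10568530 and 12008799 counted reads with Illumina, and between 12199528 and 16439683 with Ion Torrent. Values are given as reads counted, or as CPM, the reads of a gene scaled by library size after TMM, which corrects that size for a few very abundant genes. The edgeR p-values set a difference between groups against the spread between these 10 mice, which edgeR moderates across genes. Over genes that averaged 10 or more reads, the median log2 fold change was 0.0033 with TMM and -0.12 without. Without TMM 38.8% of the calls, in place of 49.7%, were in the higher direction, while the 2 higher and 2 lower members were still called. As a check of the treatment, 8 of 8 IL-1 response genes were higher, with Lcn2 at a log2 fold change of 9.91 ± 0.26 (SE) and Saa2 at 8.58 ± 0.30, and 7 of the 8 were called without TMM. The tissue label was met by the hepatocyte markers, whose summed level was 93152 to 113744 CPM in untreated and 87345 to 98847 CPM in treated mice.

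Stretches ahead of the start sites of Hnf4a, Foxa2 and Foxa1 are printed because they hold a core letter match of a liver factor, ONECUT and FOXA among them. They were read from RefSeq promoters (build GRCm38.p6) and placed by exact match on mm9 (NCBIM37), in which the counts were made; bases inside annotated exons were left out. Capitals mark ATTGAT, a core of ONECUT sites, or TGTTTAC, a core of forkhead (FOXA) sites, or GTTAAT, a core of HNF1 sites, each searched on both strands, and no capitals overlap. Hnf4a has an upstream and a downstream promoter, and the gene counts do not separate their transcripts.
Hnf4a, upstream start site, chr2:163332343-163332543, plus strand: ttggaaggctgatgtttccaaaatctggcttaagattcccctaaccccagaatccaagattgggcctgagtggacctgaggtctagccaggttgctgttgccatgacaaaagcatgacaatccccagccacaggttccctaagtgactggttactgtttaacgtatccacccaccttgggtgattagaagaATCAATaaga
Hnf4a, downstream start site, chr2:163372679-163372890, plus strand: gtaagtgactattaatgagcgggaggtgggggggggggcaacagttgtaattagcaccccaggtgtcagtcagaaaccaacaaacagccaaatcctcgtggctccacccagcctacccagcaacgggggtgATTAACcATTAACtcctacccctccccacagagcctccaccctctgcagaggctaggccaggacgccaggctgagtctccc
Foxa2, chr2:147872706-147872955, minus strand: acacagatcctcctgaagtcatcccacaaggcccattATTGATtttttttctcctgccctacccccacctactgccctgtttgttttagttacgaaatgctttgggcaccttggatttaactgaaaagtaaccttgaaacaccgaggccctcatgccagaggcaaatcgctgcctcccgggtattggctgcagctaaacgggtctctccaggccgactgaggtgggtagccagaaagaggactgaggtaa
Foxa1, chr12:58647109-58647348, minus strand: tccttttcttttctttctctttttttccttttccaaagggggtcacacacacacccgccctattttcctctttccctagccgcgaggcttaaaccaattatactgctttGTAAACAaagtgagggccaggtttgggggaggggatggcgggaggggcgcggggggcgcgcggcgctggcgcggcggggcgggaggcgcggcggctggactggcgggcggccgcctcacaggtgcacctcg

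The match to ATTGAT lay at bases -59 to -54 of the upstream Hnf4a start site and at -213 to -208 of the Foxa2 start site, counted back from the RefSeq start. In the 250 bases ahead of all 32851 RefSeq start sites, 6.72% held ATTGAT, 3.17% held TGTTTAC and 6.43% held GTTAAT. The downstream Hnf4a promoter had 2 matches to GTTAAT, at -81 to -76 and -74 to -69. Foxa1 had its match to TGTTTAC at -141 to -135, and another start site of Foxa2, not printed, held GTTAAT at -176 to -171. Of the 10 start sites read for 6 members, 0 held CAAAGTC (part of HNF4 sites, in 3.84% of all), GGGNNTTCC (NF-kB, 4.98%), TTCNNNGAA (STAT, 7.02%) or TGANTCA (AP-1, 6.75%). A match is a description of letters, and the missing ones say only that these letters were not in this window.

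Levels among the members were compared per length, as CPM per kb of exon. In untreated mice Hnf4a was highest at 137 ± 6.73 CPM per kb (SD, n = 5), above 98.1% of the genes tested in the mean over all 10 mice. Foxa3 followed at 28.2 ± 2.48 and Prox1 at 14.7 ± 4.22. These 3 were separate from each other in every untreated mouse. Onecut2 (8.53 ± 1.93), Foxa2 (7.46 ± 3.35), Foxa1 (6.76 ± 4.19) and Onecut1 (5.29 ± 6.08) came next in CPM per kb, with ranges that overlapped each other and that of Prox1, whose lowest value (10.4) lay just under the highest Onecut2 value (10.5). Hnf4g was last at 0.0838 ± 0.0287 CPM per kb. After IL-1β the first 3 places were again Hnf4a (283 ± 18.8), Foxa3 (43.6 ± 9.51) and Prox1 (19.1 ± 4.39 CPM per kb), and the next 4 changed order to Foxa2 (8.15 ± 4.47), Onecut1 (3.48 ± 3.70), Onecut2 (3.31 ± 0.76) and Foxa1 (2.74 ± 0.63). The lowest Prox1 value (14.3) lay under the highest Foxa2 value (15.5), and the lowest Foxa2 value (3.43) under the highest Foxa1 value (3.51). With Ion Torrent STAR, Foxa2, Onecut1, Foxa1 and Onecut2 stood in this order in both groups. Their means were 9.99, 9.52, 7.12 and 4.69 CPM per kb in untreated mice, and 11.6, 4.89, 2.76 and 1.88 in treated mice. In whole liver, fewer cells of a type and less RNA per cell cannot be told apart.

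**Figure D1:**
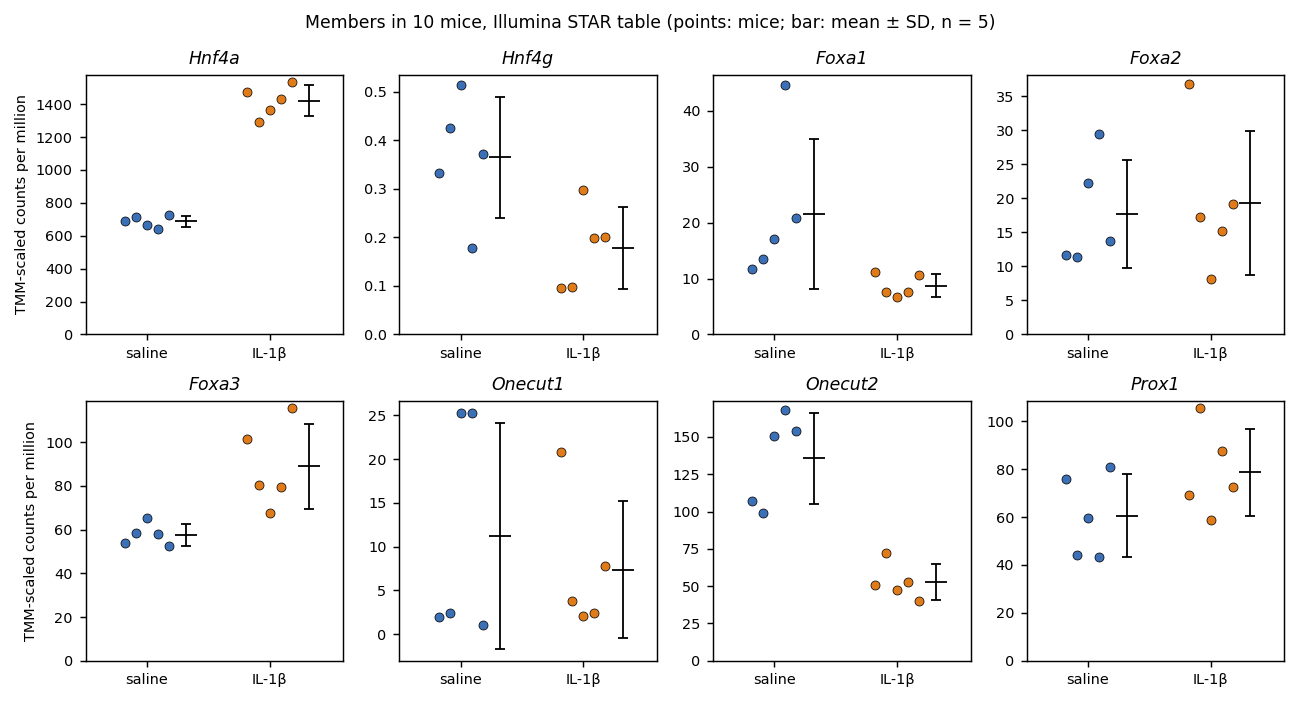
TMM-scaled CPM of each member (y axis, a separate scale per gene) in the 5 untreated (saline) and 5 IL-1β-treated mice of the Illumina STAR table; points are mice and bars are the mean ± SD. The groups are apart for Hnf4a, Foxa1, Foxa3 and Onecut2 and overlap for the other members.

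Hnf4a (ENSMUSG00000017950, chr2:163332544-163398646, plus strand), the nuclear receptor at the head of the hepatocyte network, had 15542, 13135, 13790, 14463 and 15258 reads in treated mice ILB_9577, ILB_9578, ILB_9579, ILB_9582 and ILB_9583. In untreated mice UNT_9574, UNT_9575, UNT_9576, UNT_9580 and UNT_9584 it had 8278, 8370, 7770, 7228 and 7776 reads. Every treated mouse lay above every untreated one, and the spread within a group was small beside the gap. The level was 1421 ± 94.1 CPM after IL-1β and 687 ± 33.8 CPM without (SD, n = 5 each), a 2.07-fold difference (95% confidence interval 1.81 to 2.36, log2 1.05 ± 0.089 SE, edgeR adjusted p = 4.85e-07). Hnf4a was the steadiest member between mice: its within-group SD of 0.085 (log2 CPM) was below the median of 0.217 over the 10841 genes that averaged 20 or more reads, and 10543 of them had a larger one. In the 6 tables its log2 fold change was 0.92 to 1.05.

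The antisense transcript of the Hnf4a locus, 0610008F07Rik (a noncoding RNA on the opposite strand, chr2:163319543-163367456), went the other way. It had 13 to 24 reads in treated and 29 to 76 in untreated mice, a log2 fold change of -1.17 (edgeR adjusted p = 0.00272). Its exons do not overlap those of Hnf4a in the gene models, both library kits kept strand, and whether the counting used strand is not given in the sources used here.

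Hnf4g (ENSMUSG00000017688, chr3:3508030-3659775, plus strand), the HNF4A relative best known from gut and pancreas, had 1, 1, 3, 2 and 2 reads in the treated and 4, 5, 6, 2 and 4 reads in the untreated mice (same order of mice). It was below the minimum of 5 reads in 5 libraries in each of the 6 tables. Summed over a group it had 9 reads (exact 95% Poisson interval 4.12 to 17.1) in treated and 21 (13.0 to 32.1) in untreated mice. With Ion Torrent STAR the sums were 16 (9.15 to 26.0) and 9 (4.12 to 17.1), the opposite order. These intervals cover counting error only, and no treatment difference of Hnf4g was detectable at this depth. In fits with no minimum its log2 fold change was -1.04 in Illumina STAR (edgeR adjusted p = 0.141) and 1.01 in Ion Torrent STAR (adjusted p = 0.379). The intestine markers summed to 58.6 to 109 CPM in untreated and 37.0 to 57.9 CPM in treated mice (2 of 5 tested, both lower), and the 6 pancreas markers to 7.38 to 11.7 and 4.33 to 7.40 CPM. Of these 6, Cpa1, Ctrb1, Ins2 and Pnlip were at 0 reads in every Illumina STAR library, and the 1 tested, Cela1, was lower (log2 -0.56, edgeR adjusted p = 0.0188).

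Of the 3 FOXA genes, Foxa3 (ENSMUSG00000040891, chr7:19598631-19608887, minus strand) was the most abundant and rose. Its reads were 1071, 818, 680, 801 and 1150 in treated mice ILB_9577, ILB_9578, ILB_9579, ILB_9582 and ILB_9583. In untreated mice UNT_9574, UNT_9575, UNT_9576, UNT_9580 and UNT_9584 they were 644, 683, 762, 653 and 564. In reads, ILB_9579 fell within the untreated range, and after TMM scaling the groups were apart, at 67.4 to 116 CPM against 52.5 to 65.4 CPM. The fold change was 1.55 (95% interval 1.27 to 1.89, log2 0.63 ± 0.13 SE, edgeR adjusted p = 0.00134). With a two-sided exact Mann-Whitney U test on the counts as deposited, Foxa3 missed the threshold (adjusted p = 0.0624).

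Foxa1 (ENSMUSG00000035451, chr12:58641618-58647108, minus strand), a pioneer factor, fell. It had 118, 77, 67, 77 and 105 reads in treated and 140, 159, 200, 503 and 224 in untreated mice, in the same order of mice. The groups did not overlap, and UNT_9580 stood far above the other 4. The level was 8.72 ± 2.02 CPM after IL-1β and 21.6 ± 13.4 CPM without, 2.47-fold lower (log2 -1.30 ± 0.32 SE, edgeR adjusted p = 0.00348). Without UNT_9580 the log2 fold change was -0.86 (adjusted p = 0.00313).

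Foxa2 (ENSMUSG00000037025, chr2:147868613-147872705, minus strand), the pioneer factor with a known part in bile acid and glucose genes, had 387, 175, 82, 154 and 191 reads in treated and 139, 134, 260, 332 and 147 in untreated mice. The groups overlapped over nearly their whole range. The log2 fold change was 0.13 ± 0.35 SE (95% interval -0.61 to 0.87, edgeR adjusted p = 0.775), which leaves room for a change of either sign. Its sign turned when ILB_9577 (-0.24) or UNT_9574 (-0.013) or UNT_9575 (-0.015) was left out.

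Because the 3 FOXA genes share a DNA-binding domain, their proportions within a mouse were compared as log2 ratios of read counts (pseudocount 0.5), and tested by exact permutation of the treatment over the mice (two-sided, smallest possible p 0.00794). The Foxa1/Foxa3 ratio was -3.35 ± 0.10 (SD, n = 5) in treated and -1.59 ± 0.76 in untreated mice. The difference was -1.76 with no overlap (exact permutation p = 0.00794, 0.0198 adjusted over the 5 ratios). Because every treated mouse was already lower in Foxa1 and higher in Foxa3 CPM, this separation and its p were fixed beforehand. They add no test beyond the changes of the 2 genes given above. In treated mice the values were 0.0913 to 0.110 Foxa1 reads for each Foxa3 read, and in untreated mice they ran from 0.217 to 0.770. The SD of 0.10 in treated mice was 0.12 and 0.17 with the other Illumina aligners, and with Ion Torrent, from the same RNA, it was 0.30 to 0.38. The Foxa1/Foxa2 ratio was -1.01 ± 0.51 in treated and 0.22 ± 0.42 in untreated mice (difference -1.22, exact permutation p = 0.0159, 0.0265 adjusted). For Foxa2/Foxa3 the difference of -0.54 was within the spread between mice (exact permutation p = 0.183, 0.228 adjusted). Leaving out any 1 of 7 mice (all but ILB_9577, ILB_9579 and UNT_9576) raised the adjusted p of Foxa1/Foxa2 to 0.0529, and without ILB_9577 that of Foxa2/Foxa3 was 0.0397 (exact permutation). In the other 5 tables the Foxa1/Foxa3 difference was -1.86 to -1.73 and that of Foxa1/Foxa2 -1.41 to -1.24, both below 0.05 after adjustment in each table.

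**Figure D2:**
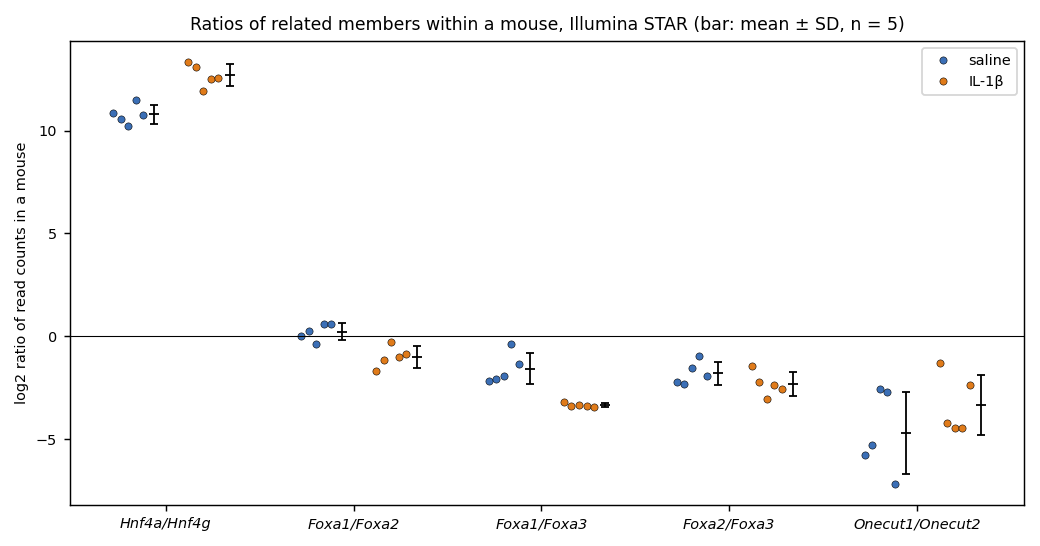
Log2 ratio of the read counts of related members within a mouse (y axis) for 5 pairs, Illumina STAR table; blue points are untreated (saline) and orange points IL-1β-treated mice, and bars are the mean ± SD. The treated and untreated mice are apart for Hnf4a/Hnf4g and Foxa1/Foxa3, and the treated values of Foxa1/Foxa3 have an SD of 0.10 here against 0.37 in the Ion Torrent STAR table.

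Hnf4a/Hnf4g was the remaining called ratio in Illumina STAR, with a difference of 1.91 (exact permutation p = 0.00794, 0.0198 adjusted over the 5 ratios). It rests on 1 to 6 Hnf4g reads a library, and in the Ion Torrent STAR table the difference was -0.024 (exact permutation p = 0.944). The Onecut1/Onecut2 difference was 1.35 (exact permutation p = 0.278), with values from -7.17 to -2.57 in untreated and -4.47 to -1.28 in treated mice.

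Onecut2 (ENSMUSG00000045991, chr18:64500002-64560641, plus strand), a homeobox factor of the ONECUT family, fell. It had 534, 736, 477, 536 and 397 reads in treated mice ILB_9577, ILB_9578, ILB_9579, ILB_9582 and ILB_9583. In untreated mice UNT_9574, UNT_9575, UNT_9576, UNT_9580 and UNT_9584 it had 1281, 1161, 1758, 1892 and 1653. The highest treated mouse was well under the lowest untreated one. The level was 52.7 ± 12.1 CPM after IL-1β and 136 ± 30.7 CPM without, 2.57-fold lower (log2 -1.36 ± 0.18 SE, edgeR adjusted p = 1.97e-05).

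Onecut1 (ENSMUSG00000043013, chr9:74709728-74737591, plus strand), the HNF6 gene, differed between mice of the same group more than any other member. It had 219, 39, 21, 24 and 77 reads in treated and 23, 29, 295, 285 and 11 in untreated mice, in the same order of mice. Mice UNT_9576 and UNT_9580 in the untreated group and ILB_9577 in the treated group were high, and ILB_9583 was between them and the rest. The highest untreated CPM was 24.7 times the lowest, and the highest treated CPM 9.98 times the lowest. Its within-group SD of 1.65 (log2 CPM) was exceeded by 1 of those 10841 genes, Lars2 (2.02), named after its value was seen. With this spread the log2 fold change was -0.60 ± 0.82 SE (95% interval -2.35 to 1.15, edgeR adjusted p = 0.559).

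The mice that stood out were high on the other platform too. With Ion Torrent STAR, Onecut1 had 344, 60, 39, 48 and 120 reads in the treated and 51, 51, 563, 566 and 88 in the untreated mice. UNT_9584 changed place, lowest of its group with Illumina (11 reads) and the third highest with Ion Torrent (88 reads). For the other tested members, the deviations from the group mean on the 2 platforms, which share the RNA, had a Pearson r of 0.861 (Prox1) to 0.948 (Foxa2) over the 10 mice.

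The counts of Onecut1 are uncertain because its exons overlap those of a neighbour. Gm16551, a noncoding transcript on the same strand (chr9:74696244-74739282), has a last exon that covers the last exon of Onecut1, and how reads in that exon were assigned is not given in the sources used here. Gm16551 had 693, 228, 122, 121 and 203 reads in treated and 393, 333, 1259, 1210 and 395 in untreated mice, and mice UNT_9576, UNT_9580 and ILB_9577 were high here too. Its log2 fold change was -1.24 (edgeR adjusted p = 0.0485 in Illumina STAR, 0.0294 to 0.0588 in the other 5 tables, of which 3 passed the threshold). With the counts of both summed into 1 row, an alternative added after the data were seen, the log2 fold change was -1.12 ± 0.54 SE (adjusted p = 0.0935), and it was -1.21 to -1.11 in the other 5 tables with adjusted p of 0.0676 to 0.100.

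**Figure D3:**
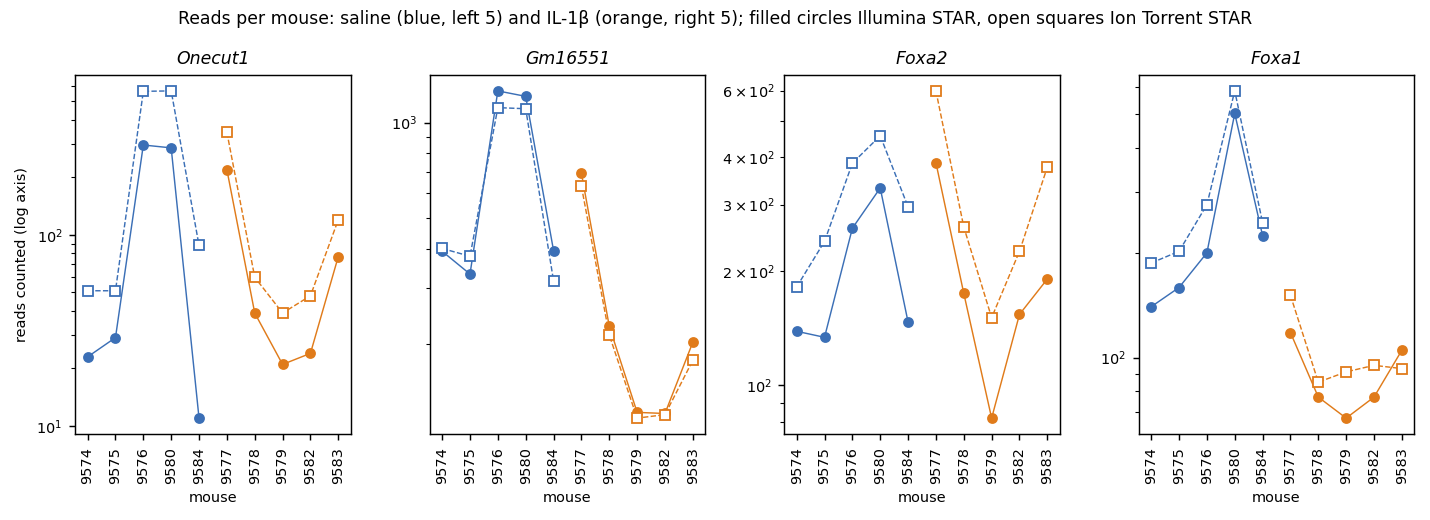
Reads counted (y axis, log scale, a separate scale per gene) for Onecut1, the overlapping transcript Gm16551, Foxa2 and Foxa1 in each mouse (x axis; untreated in blue on the left, IL-1β-treated in orange on the right); filled circles are Illumina STAR and open squares Ion Torrent STAR. Mice UNT_9576, UNT_9580 and ILB_9577 are high for Onecut1 and Gm16551 on both platforms, and for Foxa2 these are also the highest of their groups.

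Foxa2 was high in the mice that were high in Onecut1. Within the untreated group the 2 mice highest in Onecut1, UNT_9576 and UNT_9580, were the 2 highest in Foxa2 (260 and 332 reads against 134 to 147), and within the treated group ILB_9577 and then ILB_9583 were highest in both. Onecut1 splits the mice into 3 high and 7 low, so no r is given over all 10. For the 7, deviations were taken from group means that still included UNT_9576, UNT_9580 and ILB_9577. Those of Onecut1 and Foxa2 had a Pearson r of 0.548 with Illumina STAR and 0.806 with Ion Torrent STAR. Those of Onecut1 and Foxa1 had 0.400 and 0.744, and those of Onecut1 and Foxa3 0.716 and 0.655. The 3 high mice thus still shift the deviations of each group, so these r are not correlations within the 7 alone. These are descriptions over 7 mice of both treatment groups, and the pairs were singled out after their values were seen. Over all 10 mice, Hnf4a and Onecut2 had the lowest r of any pair of members (-0.686 with Illumina STAR, -0.501 with Ion Torrent STAR).

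Prox1 (ENSMUSG00000010175, chr1:191945660-191994559, minus strand), the homeobox factor, had 731, 1071, 594, 886 and 719 reads in treated and 908, 516, 695, 487 and 868 in untreated mice. The groups overlapped. The log2 fold change was 0.38 ± 0.19 SE (95% interval -0.04 to 0.79, edgeR adjusted p = 0.115), and without UNT_9584 it was 0.50 and passed the threshold (adjusted p = 0.0451). Over genes in general, UNT_9584 was the mouse whose 2 libraries were least alike. For Prox1 it was the highest untreated mouse on both platforms, at 80.7 CPM in Illumina STAR and 74.8 CPM in Ion Torrent STAR.

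Gm17566, a lincRNA on the opposite strand whose first exon overlaps that of Prox1 (chr1:191994175-192041157), fell. It had 24, 18, 19, 12 and 15 reads in treated and 51, 61, 53, 45 and 42 in untreated mice, with no overlap. The log2 fold change was -1.34 (edgeR adjusted p = 5.39e-05) and -1.53 to -1.28 in the other 5 tables. Whether reads of the overlapping exons were told apart by strand is not given in the sources used here. Both members with an antisense gene in the gene models, Hnf4a and Prox1, had a partner that was called lower. Of all genes tested, 27.2% were called lower, and with 2 such partners no pattern can be read from this.

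The same 4 members, Hnf4a, Foxa1, Foxa3 and Onecut2, were called in each of the 6 tables with the same signs. The percent_called over all genes was 54.0 with Illumina GSNAP, 52.5 with Illumina STAR + Bowtie2, 48.0 with Ion Torrent GSNAP, 51.1 with Ion Torrent STAR and 49.0 with Ion Torrent STAR + Bowtie2. Over the 6 tables the log2 fold change was -1.37 to -1.30 for Foxa1, 0.55 to 0.69 for Foxa3 and -1.39 to -1.31 for Onecut2. For members that were not called it was 0.099 to 0.22 for Foxa2, -0.96 to -0.60 for Onecut1 and 0.19 to 0.43 for Prox1. Groups were apart in CPM for Hnf4a and Onecut2 in 6 of 6 tables, for Foxa1 in 5 and for Foxa3 in 3. In Illumina STAR they were apart for 4 members, beside a percent_called of 39.4 over all genes by that rule.

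**Figure D4:**
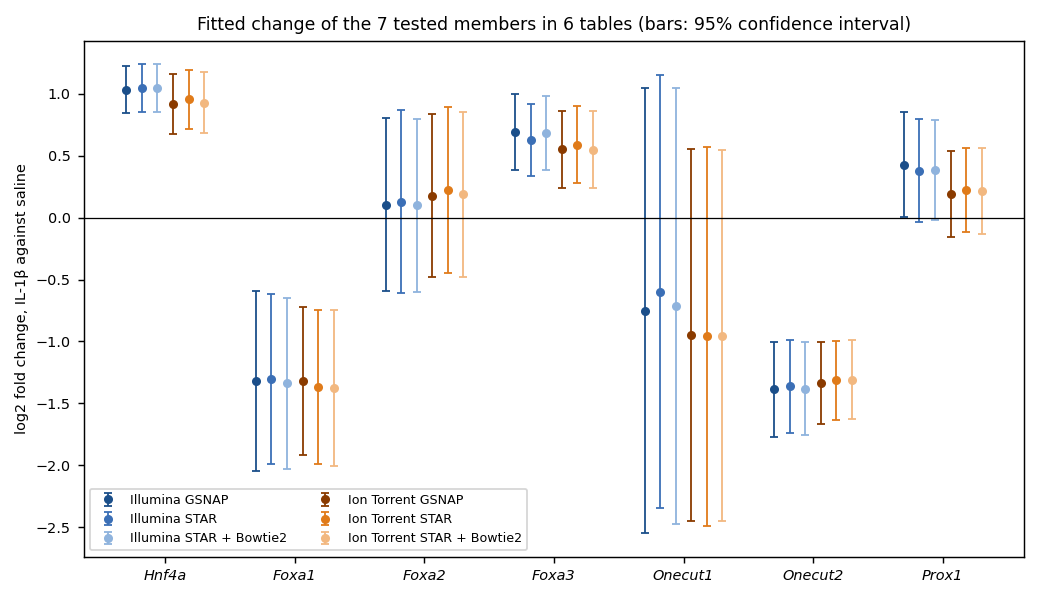
Log2 fold change of the 7 tested members, IL-1β-treated against untreated mice (y axis), fitted by edgeR in each of the 6 tables (colours); bars are 95% confidence intervals. Hnf4a and Foxa3 lie above 0, Foxa1 and Onecut2 below it in all 6 tables, and the unadjusted intervals of Foxa2 and Onecut1 include 0 in all 6, those of Prox1 in 5 (in Illumina GSNAP its lower end is just above 0).

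Whether a member responded differently on the 2 platforms was tested with a platform-by-treatment term on the 20 STAR libraries, with the mouse as a block. Of the 7 members, 0 were called by edgeR, beside 1 gene of 13496 called, a percent_called of 0.00741. limma-voom also called 0 members, as did edgeR without the replicate block. The fit without the block ignores the pairing of libraries by mouse and had larger SE (1.23 for Onecut1). In the edgeR fit with the block, 0 members had an unadjusted p below 0.05, beside 1206 of the 13496 genes. The difference in log2 fold change, Ion Torrent minus Illumina, ran from -0.41 ± 0.23 SE for Onecut1 (unadjusted p = 0.0864, adjusted p = 0.594 by edgeR) to 0.10 ± 0.13 for Foxa2. For Hnf4a it was -0.082 ± 0.069.

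Markers of other cells moved with treatment in these livers. The 5 neutrophil markers summed to 0.709 to 2.92 CPM in untreated and 41.5 to 93.8 CPM in treated mice, and 4 of 4 tested were higher. Bile ducts also express Onecut1, Onecut2, Foxa1 and Foxa2. Of the bile duct markers, Sox9 and Epcam of 5 tested were higher. The 6 listed summed to 46.0 to 63.5 CPM in untreated and 41.8 to 74.0 CPM in treated mice. Lymphatic endothelial cells express Prox1. Of their listed markers, Reln and Flt4 of 3 tested were lower and Pdpn was higher (called in none of the other 5 tables). Ccl21a was at 0 reads in every Illumina STAR library. The sum was 64.5 to 96.7 CPM in untreated and 42.9 to 72.8 CPM in treated mice. Most of it was Reln (63.3 ± 8.15 CPM in untreated mice, against 0.258 ± 0.261 CPM for Pdpn). Whether the Reln reads came from lymphatic endothelium was not tested. The sinusoidal endothelial sum was 112 to 168 and 59.1 to 117 CPM (2 of 5 lower) and that of Kupffer cells 99.2 to 170 and 56.6 to 130 CPM (2 of 5 lower, Marco higher). The part of these cells in the members' changes was not tested.

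For each tested member the 2 genes with the most similar pattern over the 10 Illumina STAR libraries were found among 9278 genes, by Pearson's r of log2 CPM. These r include the treatment difference and libraries share it, so they are a description. For Hnf4a they were Stap2, a signaling adaptor (r = 0.990; 0.973 in Ion Torrent STAR), and Cdkn1a, the cell cycle inhibitor p21 (0.989 and 0.956). For Foxa3 they were Lmna, which encodes lamin A (0.960 and 0.900), and Men1, which encodes menin (0.954 and 0.854). For Onecut2 they were Zfp704 (0.975 and 0.906) and Stag2, a cohesin subunit (0.973 and 0.930), and for Foxa1 Clk3, a splicing factor kinase (0.977 and 0.845), and 1810031K17Rik (0.937 and 0.843). For these 4 called members the r in Ion Torrent STAR was 0.843 or more. For Prox1 (Mff at 0.947 and Wapal at 0.929, against 0.385 and 0.357 with Ion Torrent), Onecut1 (Mib2 at 0.923 and Timm50 at 0.914, against 0.232 and 0.408) and Foxa2 (Banp at 0.902 and D17H6S53E at 0.863, against 0.707 and 0.651) it was weaker there.

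Genes known to depend on these factors were taken from lists written with earlier results of these data known. Of the 26 tested HNF4A target genes, 15 were lower and 2 higher (65.4% called against 54.1% of all genes), with a median log2 fold change of -0.34. The 8 hepatocyte markers stood beside this with 4 lower and 2 higher (75.0% called) and a median of -0.31. Cyp7a1, the rate-limiting enzyme of bile acid synthesis, had the largest fall (213 ± 82.8 to 8.02 ± 8.85 CPM, log2 -4.72 ± 0.62 SE, edgeR adjusted p = 2.46e-05). G6pc, the last enzyme of glucose release, had a log2 fold change of -2.99, Cyp8b1, a bile acid 12-hydroxylase, -2.06 and Pklr, liver pyruvate kinase, -1.54. The 2 that were higher were Apoa4 (0.78), an apolipoprotein, and Baat (0.39), which joins bile acids to amino acids. Hnf4a itself was higher in the same mice.

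Of 11 tested FOXA target genes, 5 were lower and 2 higher (63.6% called against 54.1% of all genes), with a median of -0.32. Abcc2, a canalicular export pump, had a log2 fold change of -1.29 ± 0.14 SE (edgeR adjusted p = 3.48e-06). The 2 higher genes were Igfbp1, an IGF-binding protein (2.39 ± 0.52, adjusted p = 0.00158), and Tat, tyrosine aminotransferase (1.51 ± 0.23, adjusted p = 7.92e-05). Of 10 tested ONECUT target genes, 5 were lower and 1 higher (60% called against 54.1% of all genes), with a median of -0.68. Slc2a2, the glucose transporter of hepatocytes, had a log2 fold change of -2.44 ± 0.17, and the 1 that was higher was Hnf4a. Some genes stand on more than 1 list, and G6pc, Pck1 and Ttr on all 3. Pck1 (log2 -0.32, edgeR adjusted p = 0.210) and Ttr (-0.32, adjusted p = 0.0605) were not called. Of the hepatocyte markers, Ttr and Apoa1 are also on the HNF4A list, and Alb, Cps1, Tat and Ttr on the FOXA list.

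Among 24 tested other liver-enriched transcription factors, 10 were lower and 4 higher, with a median log2 fold change of -0.26. The share called was 58.3%, near the 54.1% of all genes. Without TMM the split was 13 lower and 3 higher. Nr1i3 (the xenobiotic receptor CAR) fell most, from 463 ± 119 to 25.3 ± 6.16 CPM (log2 -4.19 ± 0.22 SE, edgeR adjusted p = 5.22e-09), followed by the homeobox factor Hhex (-2.14 ± 0.43), the nuclear receptor Nr2f2 (-1.95 ± 0.18) and Esrra (-1.12 ± 0.26). Atf5, Gata6 and Zhx2 were higher in all 6 tables, and Klf15 was called in Illumina STAR alone.

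Of 11 cofactors of HNF4A, FOXA and PROX1, 4 were higher and 3 lower (3 and 3 without TMM). The share called was 63.6%, against 54.1% of all genes. The PGC-1 coactivators Ppargc1b (-2.49 ± 0.46 SE, edgeR adjusted p = 0.000431) and Ppargc1a (-1.24 ± 0.34, adjusted p = 0.00678) were lower, and the acetyltransferases Crebbp (0.58 ± 0.14) and Ep300 (0.52 ± 0.093) higher. Of 8 fetal liver genes, 2 were tested. Cd24a was higher (0.77 ± 0.22, edgeR adjusted p = 0.00829) and Gpc3 was not called (-0.15 ± 0.46, adjusted p = 0.801). Afp had too few reads in Illumina STAR, and was called lower with Ion Torrent GSNAP and with Ion Torrent STAR + Bowtie2. Dlk1 and Lin28b were at 0 reads in every Illumina STAR library, which allows up to 3 reads each in a library.

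**Figure D5:**
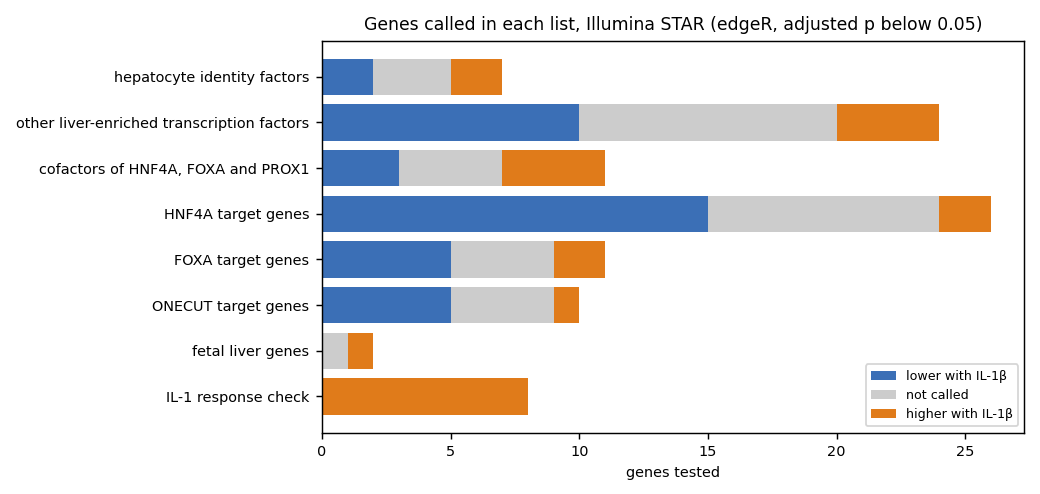
Number of genes tested (x axis) in each list, split into those called lower (blue), not called (grey) and called higher (orange) after IL-1β by edgeR in the Illumina STAR table. Lower genes outnumber higher ones in the lists of HNF4A, FOXA and ONECUT target genes and of other liver-enriched transcription factors, and the members split evenly, with 2 in each direction.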

How the data were processed

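The deposited values are count values, whole numbers of reads per Ensembl gene, in 6 tables of 10 libraries; whether an Illumina count is a read or a pair is not stated. The authors aligned reads to mm9 with GSNAP, STAR 2.5.1b or STAR plus Bowtie2 2.2.9 (versions from the submitters' processing notes), used PORT to remove rRNA and mitochondrial reads and to draw reads so that libraries within a table had similar depth; tables were tested separately. Genes with at least 5 reads in 5 libraries of a table were fitted with edgeR 4.0.16 (quasi-likelihood, TMM, Benjamini-Hochberg adjustment over all genes tested, called below 0.05), checked on simulated counts. limma 3.58.1, DESeq2 1.42.0, other scalings, filters and tables, and leaving out each mouse were alternatives. Mann-Whitney tests were exact except for genes with tied counts. The summed Onecut1 row and the unfiltered Hnf4g fits in other tables were added after the data were seen.

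The members and lists were chosen with earlier results of these data known. Named genes are the 8 members and overlapping transcripts, up to 4 genes of each list called in Illumina STAR with the same sign in 6 tables by largest absolute log2 fold change, markers at 0 in every library, and the 2 genes (mean count of at least 50) most similar to each member; others were named after their values were seen. Tf, a listed target, was not analysed here. The 2 libraries of a mouse come from 1 RNA, so the mouse was a block in the platform-by-treatment fit. The pairing was checked with the correlation of their deviations from the group mean, which was 0.591 to 0.736 for 9 mice and 0.249 for UNT_9584. With this replicate block, or without it, 0 members were called. Positions and exon lengths are those of the gene models on NCBIM37, where 37310 of 37681 identifiers were found. R 4.3.3, Python 3.11.15, scipy 1.17.1, pandas 2.3.3, numpy 2.4.6 and matplotlib 3.10.9 were used.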

Additional observations from a re-analysis of the deposited data

Results flagged for a closer look

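In 4 of 28 groups of 5 mice (7 members, 2 treatments, the STAR tables of both platforms), the gap between the highest mouse and the next exceeded Dixon's 95% critical value of 0.71 of the group's range. For normally distributed values chance gives about 1 such group in 20. The gaps were taken on CPM without a log, so that rate may not hold here, and the groups of both platforms hold the same mice. Foxa1 was high in UNT_9580 on both platforms, with a gap of 0.722 of the range in Illumina STAR (44.6 CPM, group median 17.2 CPM) and 0.776 in Ion Torrent STAR (45.5 CPM, median 18.8 CPM). Foxa1 was also high in ILB_9577 in Ion Torrent STAR, with a gap of 0.782 (12.4 CPM, median 8.14 CPM). Foxa3 was high in UNT_9576 in Ion Torrent STAR, with a gap of 0.788 (82.6 CPM, median 66.6 CPM). These 3 mice are also those with the highest Onecut1 counts.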

How the results depend on the processing

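The number of members called was 3 to 4 over 12 other settings and 4 to 5 with each mouse left out. The calls of Hnf4a, Foxa1 and Onecut2 held in all 22. Over all genes, 6036 of 13117 were called with the Mann-Whitney U test and 7164 of 19704 with no low-count filter. With edgeR's own count filter it was 6772 of 11918. With a mouse left out it was 6494 of 12964 (ILB_9583) to 6932 of 12959 (UNT_9584). Foxa3 lost its call under the Mann-Whitney U test (log2 0.45, adjusted p = 0.0624). Foxa2 reversed under that test's ratio of means (-0.033) and without ILB_9577 (-0.24) or UNT_9574 (-0.013) or UNT_9575 (-0.015), ranging from -0.24 to 0.39 with a mouse left out; the cause was not tested, and its main interval includes 0. Prox1 was called without UNT_9584 (0.50). Onecut1 ran from -1.48 to -0.0070. The Hnf4a/Hnf4g ratio reversed with Ion Torrent GSNAP (-0.15) and Ion Torrent STAR (-0.024), the cause not tested, and was 0.28 with Ion Torrent STAR + Bowtie2. Of 5 ratios, 3 were called in Illumina STAR, 2 to 3 in other settings and 2 to 4 with a mouse left out; without 1 mouse the smallest exact p is 0.0159. Of the platform-by-treatment terms, 0 members were called with or without the replicate block, with either other aligner, with limma-voom or with a mouse left out; over all genes, 1 was called, against 11 with GSNAP, 12 with STAR + Bowtie2, 0 without the block and 5 without UNT_9584. Of all calls, 49.7% were higher, against 38.8% without TMM and 35.7% with the Mann-Whitney U test, which was also run without TMM. The list counts were 11 to 16 for other liver-enriched transcription factors (main 14), 14 to 19 for HNF4A targets (main 17) and 6 to 9 for FOXA targets (main 7). Counts below about 5 reads a library set the limit for Hnf4g.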
